A study of Mus musculus with 2 samples.

Results

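Retnlg-high mature neutrophils were the bone marrow cells in which Retnlg, the gene of the secreted protein resistin-like gamma, made up at least 100 of every 10000 unique molecular identifiers (UMIs, each standing for 1 captured RNA molecule) and which held fewer than 3 UMIs of the B cell receptor gene Cd79a. They numbered 267 of 2478 cells. Of these, 178 were among the 1309 cells of the Col1a1fspKO library and 89 were among the 1169 cells of the WT library. Col1a1fspKO mice carried Fsp1-Cre and a floxed Col1a1 gene (Fsp1-Cre;Col1a1flox/flox), so that type I collagen was deleted where the promoter of Fsp1 (S100a4) had driven Cre. WT mice were age-matched littermates without Cre that carried the same floxed alleles (Col1a1flox/flox). Each library held live-sorted femur and tibia marrow pooled from 2 mice of 2 months of age, with no treatment. Each genotype was therefore 1 library, with no replicate and no test between genotypes. Genotype, pool and library cannot be told apart, and every interval given is a 95% interval that covers counting error only.

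Neutrophils mature in the bone marrow from dividing precursors, and they make the proteins of their granules in a set order: primary (azurophil) granule proteases first, secondary (specific) granule proteins such as lactoferrin next, and gelatinase granule proteins last. Mature cells stop dividing, express receptors for chemoattractants and for granulocyte colony-stimulating factor, and leave the marrow under the opposing control of Cxcr2, which promotes exit, and Cxcr4, which retains them. Retnlg, the collagenase gene Mmp8, the gelatinase gene Mmp9, the IL-36 gamma gene Il1f9 and Cxcr2 mark the late end of this sequence in the mouse.

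The promoters of the marker genes are shown because transcription factors of the C/EBP, ETS and AP-1 families are known to act on granule and inflammatory genes in the myeloid lineage. Each runs from 250 bases before to 50 bases after the gene's start in RefSeq on GRCm38.p6, all on the plus strand, and Mmp9 is named only. Capitals mark matches, on either strand, to TTGCNNAA (a C/EBP motif), GAGGAA (an ETS and PU.1 motif) or TGANTCA (an AP-1 motif). In order, the windows were chr16:48872358-48872657, chr9:7558179-7558478, chr2:24186226-24186525 and chr1:74153744-74154043.
Retnlg: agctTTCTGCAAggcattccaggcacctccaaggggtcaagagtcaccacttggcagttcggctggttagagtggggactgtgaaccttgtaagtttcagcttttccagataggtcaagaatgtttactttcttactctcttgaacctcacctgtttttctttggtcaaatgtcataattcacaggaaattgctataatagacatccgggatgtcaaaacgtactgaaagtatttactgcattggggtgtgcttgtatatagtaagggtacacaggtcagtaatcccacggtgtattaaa
Mmp8: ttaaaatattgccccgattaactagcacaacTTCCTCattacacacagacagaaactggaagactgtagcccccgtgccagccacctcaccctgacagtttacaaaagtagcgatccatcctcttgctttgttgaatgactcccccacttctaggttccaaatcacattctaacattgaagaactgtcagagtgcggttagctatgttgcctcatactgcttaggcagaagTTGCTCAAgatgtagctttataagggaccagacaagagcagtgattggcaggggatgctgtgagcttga
Il1f9: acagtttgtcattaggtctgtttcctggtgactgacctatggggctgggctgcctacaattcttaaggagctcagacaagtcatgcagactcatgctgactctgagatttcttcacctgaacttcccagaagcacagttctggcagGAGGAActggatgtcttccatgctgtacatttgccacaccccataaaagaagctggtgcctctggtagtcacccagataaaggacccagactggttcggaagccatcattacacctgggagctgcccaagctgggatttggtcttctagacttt
Cxcr2: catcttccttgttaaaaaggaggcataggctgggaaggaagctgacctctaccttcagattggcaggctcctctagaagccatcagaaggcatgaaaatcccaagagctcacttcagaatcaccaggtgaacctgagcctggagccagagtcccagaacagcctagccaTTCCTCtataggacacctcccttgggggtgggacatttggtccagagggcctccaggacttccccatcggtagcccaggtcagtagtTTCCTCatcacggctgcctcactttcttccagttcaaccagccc

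The C/EBP motif occurred 1 time each in the Retnlg and Mmp8 windows, and the ETS motif 1 time each in Mmp8 and Il1f9 and 2 times in Cxcr2. No AP-1 match was in these windows. Of 32851 mouse promoters of the same length, 10.8% held the C/EBP motif, 28.3% the ETS motif and 7.81% the AP-1 motif, and a match is only a description of the letters.

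The members were compared with neutrophils that had not reached the Retnlg level. Maturing neutrophils were cells below it with Mmp8 of at least 5 per 10000 UMIs, and immature neutrophils were cells below both levels with the lactoferrin gene Ltf of at least 20 per 10000. B cells were cells with at least 3 Cd79a UMIs. There were 135 maturing and 202 immature cells in the Col1a1fspKO library, and 129 and 223 in the WT library.

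The Retnlg-high cells held little RNA. A Col1a1fspKO member had a median of 3171 UMIs and a WT member 3505, against 3657 and 3840 in maturing cells and 5126.5 and 5951 in immature cells. The median number of genes detected was 767 and 828 in the members, 874 and 924 in maturing cells and 1073.5 and 1305 in immature cells. The libraries held 8647722 and 8624469 UMIs over all cells and 614251 and 327526 over the members. The Col1a1fspKO table reached down to a cell of 2540 UMIs and the WT table to 2909, so the former could hold smaller cells.

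Retnlg itself chose the cells, and its levels are given as description only. It reached a median of 340 per 10000 UMIs in the Col1a1fspKO members, with quartiles of 181 and 528 and a highest cell of 984. In WT the median was 249, the quartiles were 140 and 389 and the highest cell was 979.7. Nearest to the threshold, the cells lay at 102 and 99.6 per 10000 in Col1a1fspKO and at 100.2 and 96.4 in WT. Between 80 and 100 per 10000 there were 18 and 7 cells, and between 100 and 120 there were 13 and 14, so that the boundary cut through a continuous range. In these cells Mmp8 was 1456 and 2802 CPM (UMIs per 1000000 UMIs of the summed cells) just inside, in Col1a1fspKO and WT, and 2576 and 1816 CPM just outside. The Cd79a limit removed 4 and 6 cells that passed on Retnlg.

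Some members carried RNA of another lineage. A cell was called mixed, by a rule chosen after the values were seen, if it had at least 3 UMIs of a B cell, T and NK cell, monocyte, eosinophil and basophil, plasmacytoid dendritic, progenitor or megakaryocyte marker list, or over 5% erythroid UMIs. This held for 6 Col1a1fspKO and 3 WT members, for 15 and 21 maturing cells and for 11 and 12 immature cells. Among the members, 1 WT cell held 189 of the 194 eosinophil and basophil UMIs, and 1 Col1a1fspKO cell held 83 of the 158 monocyte UMIs. The B cell list summed to 124 and 48 UMIs, with 39 and 28 in the highest cell. Globin and other erythroid RNA was in every member, at a median of 41 and 39 UMIs per cell. The progenitor list had 1 UMI in each library and the megakaryocyte list had 0 in Col1a1fspKO and 1 in WT. Results that rest on mixed cells are given with and without them, except along the Retnlg range. There, only the summed secondary granule genes are given both ways. The libraries shared 2 cell barcodes, of which 1 was Retnlg-high in either. Col1a1, the deleted gene, had 3 UMIs in all Col1a1fspKO cells together, was not listed for WT and had 0 UMIs in the members, so it checks no label here. S100a4, whose promoter drove Cre, had 20 UMIs in 4 Col1a1fspKO members and 8 UMIs in 2 WT members.

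The other 4 markers were higher in these cells than in maturing cells, immature cells or B cells of either library. Mmp8, whose product cleaves fibrillar collagen, stood at 2338 CPM (2218 to 2462) in the Col1a1fspKO members and at 3026 CPM (2840 to 3220) in those of WT. In maturing cells, which were themselves chosen on Mmp8, it was 1713 and 1593 CPM, and in immature cells it was 46.8 and 32.1 CPM. Mmp9, whose product cleaves denatured collagen, stood at 1158 CPM (1074 to 1246) and 1136 CPM (1023 to 1257) in the members, at 743 and 641 CPM in maturing cells and at 137 and 120 CPM in immature cells. The order was the same for both proteases, highest in the members and lowest in the immature cells.

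Il1f9, a cytokine of the IL-1 family, had the largest ratio to maturing cells of these 4. Its level was 228 CPM (192 to 269) for Col1a1fspKO members and 147 CPM (108 to 194) for WT members, against 28.2 and 22.96 CPM in maturing cells and 2.42 and 4.69 CPM in immature cells. The ratio of members to maturing cells was 8.09 (4.81 to 14.5) and 6.38 (3.40 to 12.8). Cxcr2, the receptor that draws neutrophils out of the marrow, stood at 238 CPM (201 to 280) and 202 CPM (155.8 to 256.4), or 2.41 (1.76 to 3.34) and 3.17 (2.08 to 4.90) times the maturing level. Both genes were at or under 10 CPM in B cells, where Il1f9 was 5.96 and 4.48 CPM and Cxcr2 was 9.53 and 7.28 CPM.

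**Figure D1:**
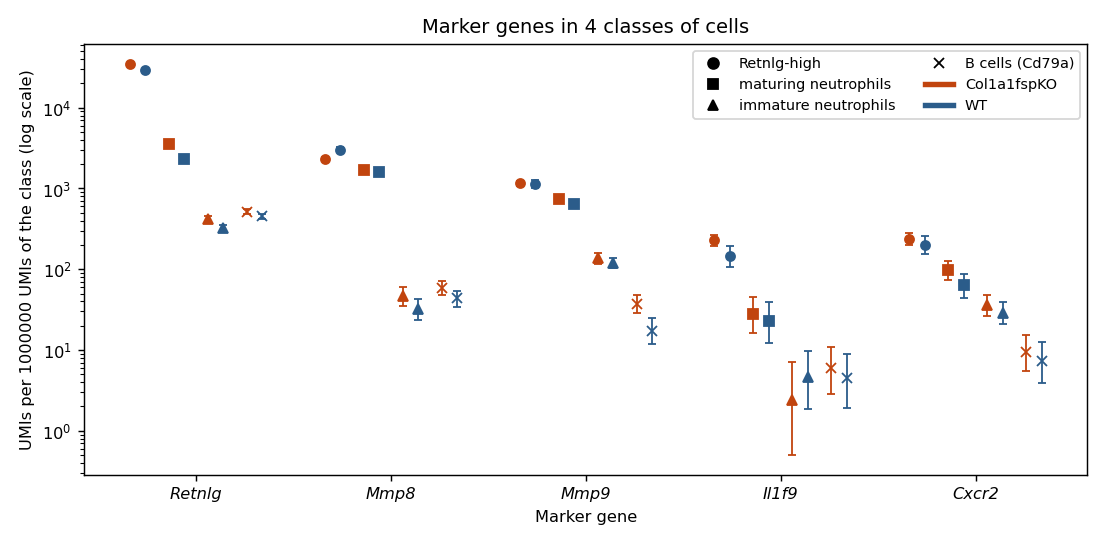
Level of the 5 marker genes in CPM (log axis) in Retnlg-high, maturing and immature neutrophils and in B cells of the Col1a1fspKO and WT libraries, with 95% Poisson intervals as bars. Each marker was highest in the Retnlg-high cells, and Il1f9 fell from 228 and 147 CPM there to 28.2 and 22.96 CPM in maturing cells; Retnlg and Mmp8 took part in choosing the classes.

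Not every member carried every marker. After each cell was thinned to 2500 UMIs, Mmp8 had at least 1 UMI in 98.9% of members in both libraries and Mmp9 in 92.1% and 89.9%. Il1f9 was detected in 42.1% and 30.3% and Cxcr2 in 44.9% and 34.8% (unthinned 51.1% and 36.0%, and 54.5% and 50.6%). In B cells, with a median of 4594 and 5722 UMIs before thinning, the same 4 genes were detected in 1.83% to 5.83% of thinned cells. In the thinned cells, all 4 genes besides Retnlg had a UMI in 40 of 178 Col1a1fspKO members (22.5%) and 10 of 89 WT members (11.2%), while only 1 WT member had none of them.

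The Retnlg-high cells took a larger share of the Col1a1fspKO marrow. In that library 13.6% of cells were members (11.8 to 15.6, exact binomial), against 7.61% (6.16 to 9.29) of the WT cells. The shares differed by 5.98 points (3.57 to 8.39, Newcombe interval). Of all cells in the 3 neutrophil classes, they were 34.6% (30.5 to 38.8) and 20.2% (16.5 to 24.2). The maturing share was 10.3% and 11.04% of all cells and the immature share was 15.4% and 19.1%. Because these are small cells, the lower UMI limit of the Col1a1fspKO table bears on the share. With only cells of at least 2909 UMIs in both libraries, 118 of 1154 Col1a1fspKO cells were members, or 10.2% (8.54 to 12.1), and the difference from WT was 2.61 points (0.292 to 4.95). At that minimum the members were 27.6% (23.4 to 32.1) of the Col1a1fspKO neutrophils, 7.39 points (1.72 to 13.01) above WT.

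As a description of how the rule's own gene spread over the members, at least 400 Retnlg UMIs per 10000 were reached by 72 of 178 Col1a1fspKO members (40.4%) and by 21 of 89 WT members (23.6%). At the shared minimum of 2909 UMIs the shares were 28.8% and 23.6%.

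Against maturing neutrophils, the Retnlg-high cells held more RNA of single receptor genes such as Cxcr2 and Csf3r, of Il1f9 and of S100a6, and less of secondary granule and cell cycle genes. Since Retnlg chose the cells, these ratios describe the class and are no test of it. Of 1332 genes with at least 50 UMIs, 21 (1.58%) were over 2-fold higher in the members in both libraries and 89 (6.68%) were over 2-fold lower. Without the mixed cells, 26 of 1086 (2.39%) were higher and 13 (1.20%) were lower, so the count of lower genes in particular depended on the mixed cells.

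The genes above 2-fold included several receptors. Csf3r, the receptor for granulocyte colony-stimulating factor, was 2.17 and 2.19 times the maturing level, in Col1a1fspKO and WT. Fpr1, which senses formylated bacterial peptides, was 2.42 and 2.16 times higher, and Clec4e, a receptor for microbial glycolipids, 2.10 and 2.47 times higher. The complement receptor C5ar1 came close at 1.98 and 1.96. Of 7 chemoattractant receptor genes tested, 2 passed 2-fold upward, Cxcr2 and Fpr1, and the median log2 ratio was 0.83 and 0.70. That of all genes was -0.05 and -0.08. The ratio was above 1 in both libraries for 5 of these 7 genes and for 34.8% of all genes tested. Without mixed cells, Fpr1 was 2.13 and 1.88 times higher, and Cxcr2 was the only chemoattractant receptor gene that passed in both libraries. Of 7 growth factor and immune receptor genes tested, 2 passed 2-fold upward and 4 were above 1 in both libraries. Their median log2 ratio was 0.65 and 0.11. Without mixed cells, 1 of 6 genes of that list passed.

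The remaining receptors of the 2 lists showed a graded picture. Ccr1, a receptor for CC chemokines, was 1.77 and 1.62 times the maturing level. Fcgr3, a low-affinity receptor for IgG, was 1.80 and 1.79 times, at 513 CPM in Col1a1fspKO members and 342 CPM in those of WT. Fpr2, the relative of Fpr1, was at 0.96 and 1.26 and Cxcr4 at 1.02 and 1.47. Ltb4r1, the leukotriene B4 receptor, was at 0.62 and 0.82. Il1rn, the antagonist of the IL-1 receptor, was 1.94 and 3.58 times the maturing level. Clec4d, with too few UMIs for the count of genes, stood at 119 and 88.5 CPM in members and at 4.84 and 2.68 CPM in immature cells.

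Among the other genes above 2-fold, Asprv1, an aspartic protease, was 4.16 and 3.38 times higher. S100a6, a calcium-binding protein, stood at 5893 and 5108 CPM, 2.46 and 2.70 times the maturing level, and its relative S100a11 was 1.92 and 2.22 times higher. Of the 6 S100 genes tested, S100a6 alone passed 2-fold upward and 2 passed downward, S100a4 at 0.29 and 0.10 and S100a10 at 0.20 and 0.46 times the maturing level. Without mixed cells, 4 of the 6 had enough UMIs, and S100a6 was still the 1 past 2-fold, with none lower. Ninj1, a membrane protein of cell lysis, was 2.59 and 2.36 times higher, Timp2, an inhibitor of matrix metalloproteases, 2.27 and 2.73 times, and the tropomyosin Tpm4 2.29 and 2.80 times. S100a8 and S100a9, the calprotectin subunits, were the most abundant of the S100 genes, at 216338 and 144021 CPM in Col1a1fspKO and 219631 and 148007 CPM in WT.

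For some genes the maturing level depended on the mixed cells. Srgn, the proteoglycan core of granules, was 6.38 and 3.10 times higher in the members with all cells and 23.8 and 12.1 times without mixed cells. Ccl6, a chemokine, was 3.12 and 1.80 times higher with all cells and 20.6 and 16.6 times without. Cebpb, a C/EBP factor of late and inflammatory myeloid cells, moved from 1.56 and 0.81 to 2.77 and 3.15. The monocyte list was at 454 and 713 CPM in maturing cells and 257 and 55.0 CPM in members.

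The secondary granule genes were lower in the members than in maturing cells, with 1 of 7 tested, Chil3, past 2-fold. The ratio was below 1 in both libraries for 5 of the 7, against 42.6% of all genes tested. Summed over the list they made 56980 and 60325 CPM in members, 100066 and 97586 CPM in maturing cells and 135773 and 133626 CPM in immature cells. The level stepped down with the class in both libraries, but immature cells were themselves chosen on Ltf, a gene of this list. Their high sum was therefore partly set by the rule. Camp, the cathelicidin antimicrobial peptide, was 0.55 and 0.59 times the maturing level, and Ngp, neutrophilic granule protein, 0.50 and 0.57 times. Ltf, the iron-binding lactoferrin, was 0.52 and 0.65 times and Chil3, a chitinase-like protein, 0.37 and 0.22 times. Lcn2, the siderophore-binding lipocalin, was 0.87 and 0.93 times the maturing level, and Hp, haptoglobin, was 1.46 and 1.14 times. The median log2 ratio of the list was -0.87 and -0.62, and without mixed cells it was -1.11 and -0.84, with 3 of 7 genes past 2-fold. Cebpe, the factor that drives secondary granule genes, was 0.51 and 0.70 times the maturing level.

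None of 6 myeloid transcription factor genes tested passed 2-fold in both libraries with all cells, and 1 of 5, Cebpb, did without mixed cells. Spi1, which encodes PU.1, was at 1.12 and 1.22 times the maturing level, and Nfe2 at 1.23 and 1.03. Klf2, a zinc finger factor of quiescent leukocytes, was at 1.36 and 1.19 and Jund, an AP-1 subunit, at 1.59 and 1.91. Against immature cells the contrast in Cebpe was larger, with 941 and 996 CPM there and 220 and 348 CPM in members.

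Of 6 genes of the NADPH oxidase, the enzyme of the oxidative burst, none passed 2-fold and the median log2 ratio was 0.09 and 0.22. Its catalytic subunit Cybb was the low member at 0.52 and 0.61 times. None of 10 glycolysis genes passed 2-fold. Cell cycle genes were lower, with 2 of 3 tested past 2-fold with all cells and 1 of 2 without mixed cells. The 16 genes of the list summed to 925 and 821 CPM in members, 2060 and 1906 CPM in maturing cells and 5303 and 6106 CPM in immature cells. Of 79 ribosomal protein genes, 40 were over 2-fold lower in the members with all cells and 0 of 78 without mixed cells, where their median log2 ratio was -0.40 and -0.41 against -1.10 and -1.05 before.

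**Figure D2:**
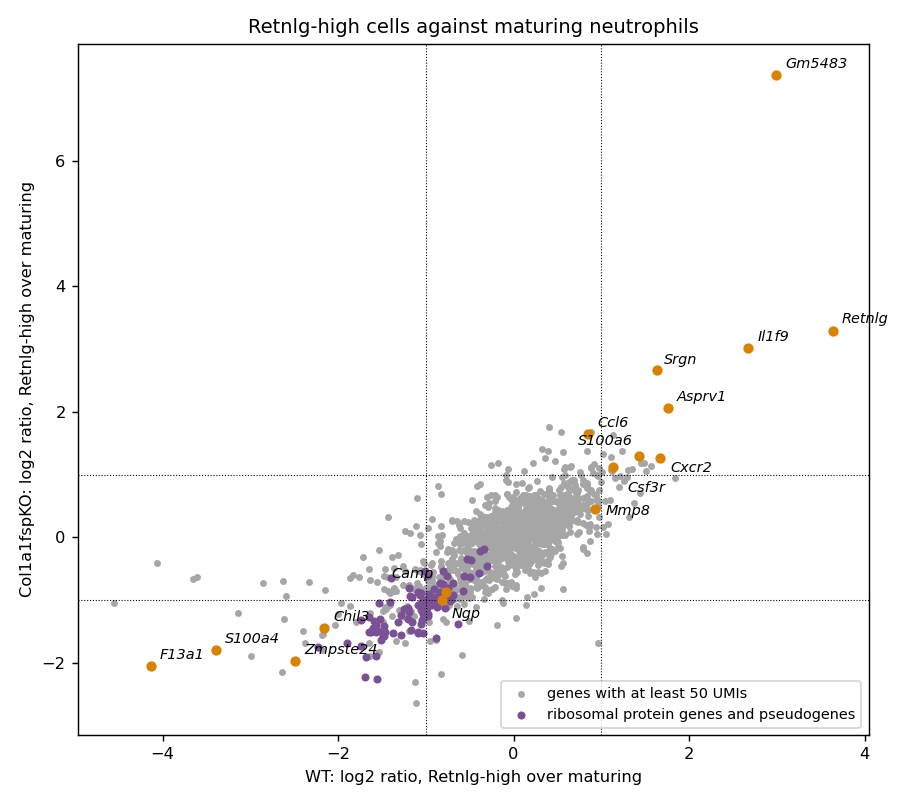
Log2 ratio of CPM in Retnlg-high over maturing neutrophils, in WT (x axis) and Col1a1fspKO (y axis), for the 1332 genes with at least 50 UMIs; ribosomal protein genes are purple, dotted lines mark 2-fold and a gene with 0 UMIs in a class is drawn at its bound. In both libraries 21 genes lie above 2-fold and 89 below, and 40 of 79 ribosomal protein genes are among the latter before mixed cells are removed.

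Retnlg also graded the members among themselves, and the cells were split at 200 and 400 per 10000 into 51, 55 and 72 cells in Col1a1fspKO and 32, 36 and 21 cells in WT. All CPM values and shares of UMIs by these ranges leave Retnlg out of the totals, unlike those by class. The secondary granule genes declined along this range within the class. Their sum went from 86880 to 66091 to 26344 CPM in Col1a1fspKO, and from 82102 to 59104 to 33887 CPM in WT. The top range thus stood at 0.30 (0.29 to 0.31) and 0.41 (0.39 to 0.43) of the bottom range. Cell by cell, these genes made a median of 8.90%, 6.81% and 2.35% of UMIs in Col1a1fspKO and 9.02%, 5.89% and 2.46% in WT. The cells of the ranges overlapped widely, from 0.266% to 18.0% in the bottom range and from 0.384% to 9.20% in the top range of Col1a1fspKO, and from 0.266% to 14.6% and 0.684% to 9.88% in WT.

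**Figure D3:**
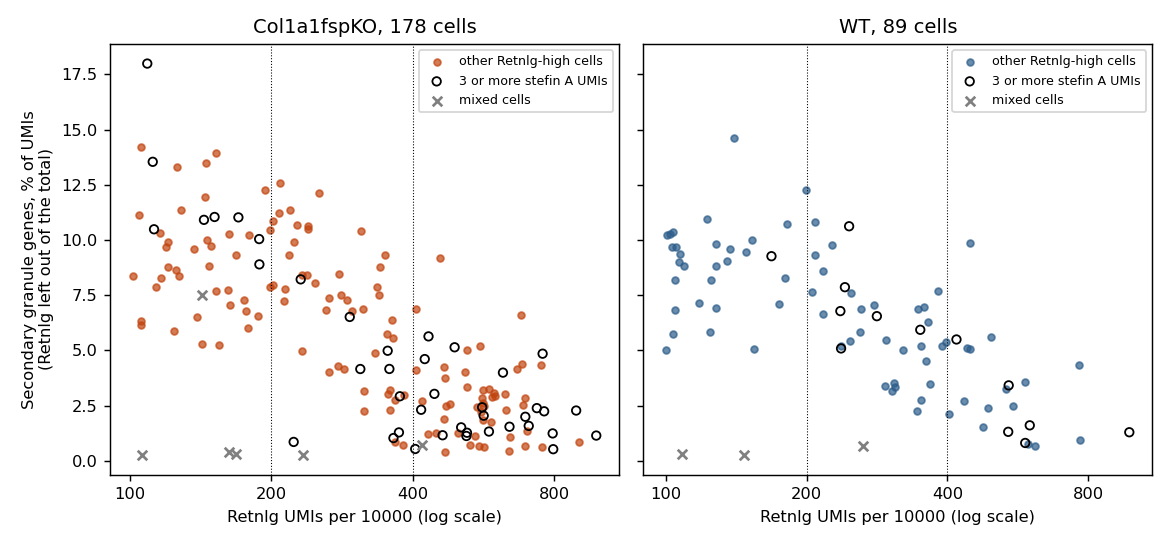
Share of each Retnlg-high cell's UMIs, Retnlg left out, in secondary granule genes (y axis, percent) against its Retnlg UMIs per 10000 (x axis), for Col1a1fspKO and WT. Open circles are cells with at least 3 stefin A UMIs, crosses are mixed cells and dotted lines mark 200 and 400 per 10000. The median share went from 8.90% to 2.35% in Col1a1fspKO and from 9.02% to 2.46% in WT, with wide overlap between the ranges.

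Single granule genes fell off unequally between the bottom and the top range. Camp, Ngp and Ltf lie near each other on chromosome 9, from 109847377 to 111042766. Camp went from 39491 to 28870 to 8032 CPM in Col1a1fspKO and from 36948 to 24683 to 11593 CPM in WT. Ltf went from 4630 to 3407 to 730 CPM in Col1a1fspKO and from 5676 to 3451 to 1044 CPM in WT, a top-to-bottom ratio of 0.16 and 0.18. Chil3 was at 0.10 and 0.13 and Ngp at 0.26 and 0.43 of the bottom range. Lcn2, in the same list, was at 0.69 and 0.75.

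The proteases and Ly6g, the surface antigen by which mouse neutrophils are sorted, hardly followed Retnlg. The top-to-bottom ratio was 1.26 and 1.11 for Mmp8, 1.24 and 1.06 for Mmp9 and 1.07 and 0.91 for Ly6g. Mmp8 stood at 2058, 2613 and 2593 CPM over the 3 ranges in Col1a1fspKO and at 2859, 3329 and 3187 CPM in WT. The NADPH oxidase list had ratios of 1.02 and 1.01.

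Few genes were higher at the top of the range by this measure. Of 349 genes tested, 6 (1.72%) were over 2-fold higher in both libraries and 15 (4.30%) over 2-fold lower. Ccl6 was at 280, 287 and 1080 CPM in Col1a1fspKO and at 230.0, 211 and 1332 CPM in WT, so that the top range stood apart from the other two. Its ratio was 3.86 (2.87 to 5.29) and 5.79 (3.77 to 9.17). C5ar1 was 2.30 and 2.31 times higher, Taldo1, an enzyme of the pentose phosphate pathway, 2.10 and 2.31 times, the tetraspanin Cd9 2.06 and 2.20 times and Btg1, an antiproliferative gene, 2.45 and 2.02 times. The sixth, the stefin A gene Gm5483, had a ratio of 13.4 (9.16 to 20.2) in Col1a1fspKO and 77 against 1 UMIs in WT.

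Several genes with fewer UMIs were also higher at the top of the range. Il1f9 stood at 107, 192 and 398 CPM in Col1a1fspKO and at 57.5, 154 and 302 CPM in WT, and its ratio of 3.73 and 5.26 continued within the class the order seen between classes. Asprv1 was 3.01 and 10.0 times higher, the latter from 30 and 5 UMIs. Dusp1, a phosphatase induced by stress and by tissue dissociation, was 6.14 and 5.85 times higher, from 39 UMIs at the top and 6 at the bottom for Col1a1fspKO, and 14 and 4 for WT. Cxcr2 was 1.66 and 1.49 times higher, with an interval in WT from 0.71 to 3.09. Clec4d, a C-type lectin receptor of the Clec4e family, had 48 UMIs at the top and 4 at the bottom in Col1a1fspKO (11.3 times higher) and 12 and 7 in WT (2.87 times). Selplg, the selectin ligand of neutrophil rolling, was 1.98 and 2.65 times higher. Cxcr4, the retention receptor, was at 0.71 and 0.73 of the bottom range.

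Of the 15 lower genes, Chil3, Ltf, Camp and Ngp were granule genes, Cybb was an oxidase subunit at 0.25 and 0.47, and several encoded ribosomal proteins, with Rps18 at 0.29 and 0.27 and Rpl13 at 0.27 and 0.30. The summed ribosomal list was at 0.58 and 0.66 and the mitochondrial list at 0.62 and 0.53. With mean single-cell CPM these were 0.67 and 0.70, and 0.66 and 0.55. These counts and ratios include the mixed cells. Cd74 fell from 252 UMIs over all Col1a1fspKO members to 11 over those at 200 or more. In WT, Prss34 fell from 110 to 2 UMIs, so RNA of these 2 genes lay largely in the bottom range. The median UMIs per cell were 3627, 3393 and 2889.5 over the ranges in Col1a1fspKO and 3769, 3203 and 3571 in WT, so the top range was the shallowest in Col1a1fspKO and not in WT. With cells of at least 2909 UMIs only, the granule ratio was 0.314 in Col1a1fspKO.

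**Figure D4:**
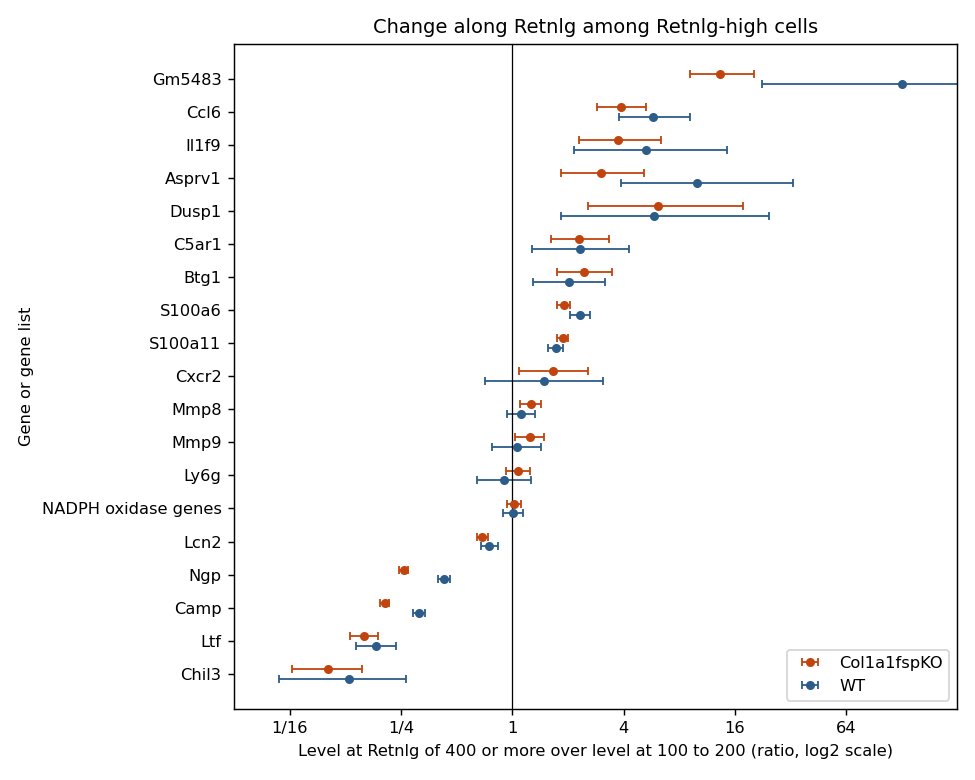
Ratio of CPM in Retnlg-high cells of at least 400 per 10000 to those of 100 to 200 (x axis, log scale) for single genes and summed lists (y axis), with 95% binomial intervals, in Col1a1fspKO and WT. Retnlg is left out of the totals. Ccl6, at 3.86 and 5.79, and Gm5483, whose WT interval runs past the axis, lie on the right and Chil3, at 0.10 and 0.13, on the left, while Mmp8, Mmp9 and Ly6g stay near 1.

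The stefin A genes, a cluster on chromosome 16 that encodes cytosolic inhibitors of cysteine proteases, were carried by a minority of the members. These genes are near-identical copies, so the split of UMIs among Stfa1, Stfa3, Stfa2l1, BC100530 and Gm5483 is uncertain and the sum is the firmer value. Leaving out mixed cells, 41 of 172 Col1a1fspKO members, or 23.8% (17.7 to 30.9), and 13 of 86 WT members, or 15.1% (8.30 to 24.5), had at least 3 stefin A UMIs, a limit chosen after the values were seen. These cells held 92.7% of the 1131 stefin A UMIs of all members in Col1a1fspKO and 75.4% of the 207 in WT. Both totals include the mixed members, which were not counted among these cells. Leaving the mixed members out took Gm5483 from 534 to 491 UMIs in Col1a1fspKO and from 129 to 94 in WT. The 2 percentages are therefore lowered by mixed cells to an unequal degree. In maturing and immature cells together, 11 of 337 and 6 of 352 reached 3 UMIs. With only cells of at least 2909 UMIs, 24 of 112 Col1a1fspKO members reached 3 UMIs, or 21.4% (14.2 to 30.2). The WT members stayed at 13 of 86.

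The stefin-positive members lay high in the Retnlg range. Their median Retnlg was 433 per 10000 against 311 in the rest in Col1a1fspKO, and 350 against 247 in WT, and 24 of 41 and 6 of 13 were at 400 or more. Their median stefin A count was 17 and 6 UMIs, the highest 129 and 54, and 24 and 3 of them carried at least 2 different stefin A genes. Compared with the other members, Il1f9 was 1.82 (1.26 to 2.60) times higher in Col1a1fspKO and 1.54 (0.68 to 3.16) times in WT. Ccl6 was 1.57 and 2.59 times higher. Camp was at 0.80 and 0.75 and Ngp at 0.75 and 0.75 of the rest, while Mmp8 was at 0.91 and 1.15 and Ly6g at 0.99 and 1.19.

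Between genotypes, none of the secondary or gelatinase granule genes tested passed 2-fold in the Retnlg-high cells. The genes past 2-fold included 4 of 5 stefin A genes tested, 2 of 4 Ly6 genes, 1 of 3 MHC class I genes and a few single genes. Of 1350 genes with at least 50 UMIs, 18 (1.33%) were over 2-fold higher in Col1a1fspKO and 8 (0.593%) over 2-fold lower. Without the mixed cells, 13 of 1244 genes (1.05%) were higher and 5 (0.402%) lower, and these included 12 of the 18 and 5 of the 8. These ratios compare 1 library with another, and a difference between pools of 2 mice cannot be told apart from a difference between genotypes.

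Among the 4 genes of the Ly6 surface antigen family tested, Ly6c1 and Ly6g passed 2-fold. The 6 genes of the list summed to 4578 CPM in Col1a1fspKO members and 2339 CPM in those of WT. Ly6c1 lies at chr15:75044018-75048920 and Ly6g at chr15:75155261-75159128 (GRCm38.p6). Ly6c1 had 464 UMIs over the members of Col1a1fspKO and 5 over those of WT, or 755 against 15.3 CPM, a ratio of 49.5 (21.1 to 153). The ratio was 99.95 in maturing and 75.8 in immature cells, so the difference was seen in all 3 neutrophil classes. It was not confined to them. Before thinning, Ly6c1 was detected in 21 of 240 B cells of Col1a1fspKO (8.75%) and in 1 of 218 of WT (0.459%). In thinned B cells the shares were 5% and 0.459%. Ly6c1 and Ly6c2 are near-identical, and reads can be assigned to either, so the split between them is uncertain. Ly6c2 stood at 1859 and 1453 CPM, a ratio of 1.28 (1.15 to 1.43). Ly6g stood at 1775 CPM in members of Col1a1fspKO and 757 CPM in those of WT, a ratio of 2.34 (2.04 to 2.70), and was 2.06 and 1.89 times higher in maturing and immature cells. Within the 3 Retnlg ranges the Ly6g ratio was 2.02, 2.72 and 2.39, so it was about as large within each range as over all members.

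The stefin A genes were higher in the Col1a1fspKO members, with 4 of 5 tested past 2-fold and a median log2 ratio of 1.71. Their sum was 1841 CPM in Col1a1fspKO members and 632 CPM in those of WT. In maturing cells the sum was 47.5 and 68.9 CPM, and in immature cells 58.1 and 38.8 CPM, so the direction differed between classes. Gm5483 was 2.21 (1.82 to 2.70) times higher, BC100530 3.26 (2.26 to 4.84), Stfa2l1 4.64 (2.80 to 8.18) and Stfa1 10.9 (5.38 to 25.6) times. Stfa3, at 1.40 (0.81 to 2.52), was the exception. Few cells carried these values: 1 cell held 41.9% of the WT UMIs of Gm5483, and single cells held 37.4% of the Col1a1fspKO and 75% of the WT UMIs of Stfa1. The summed stefin A ratio was 11.6 (5.46 to 29.4), 1.496 (1.17 to 1.93) and 2.59 (2.11 to 3.21) over the 3 Retnlg ranges, from the lowest. The first of these came from 131 against 7 UMIs.

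Of 3 MHC class I genes tested, the heavy chain H2-K1 passed 2-fold, at 2.47 (1.69 to 3.72). B2m, the light chain, was at 1.88 (1.66 to 2.15) and the heavy chain H2-D1 at 1.58 (1.38 to 1.82), both short of 2-fold. In maturing and immature cells B2m was 1.47 and 1.56 times higher and H2-K1 1.98 and 2.32 times. Ifitm1, an interferon-induced membrane protein, was 5.33 (2.31 to 15.1) times higher, from 60 UMIs over the Col1a1fspKO members and 6 over those of WT. Without mixed cells the ratio was 8.10 (3.004 to 30.7), and with cells of at least 2909 UMIs only, where 22 and 6 UMIs were left, the log2 ratio was 1.41 against 2.41 over all members. Over the 3 Retnlg ranges, from the lowest, the members held 2 against 3, 9 against 1 and 49 against 2 UMIs in Col1a1fspKO against WT. Irf7, an interferon regulatory factor, was 2.73 times higher, and 2.16 (1.02 to 5.10) times without mixed cells, from 36 and 9 UMIs. In maturing and immature cells Irf7 was at 1.15 and 0.96 and Ifitm1 at 1.20 and 3.37. Of 5 interferon-stimulated genes tested, Ifitm1 and Irf7 passed 2-fold, while Ifitm2 and Ifitm3 were at 1.26 (1.05 to 1.51) and 1.35 (1.22 to 1.505). The median log2 ratio of the list was 0.68 against 0.00 for all genes. Without mixed cells 1 of 4 tested passed and the list's median was 0.51.

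Gdpd3, a lysophospholipase D encoded at chr7:126766414-126775645, was the most different gene in the other direction outside the mixed cells. It had 42 UMIs over the Col1a1fspKO members and 114 over those of WT, or 68.4 against 348 CPM, a ratio of 0.20 (0.13 to 0.28). The ratio was 0.17 in maturing cells and 0.23 in immature cells, and B cells held 10.7 and 49.3 CPM, so that the difference ran through cells of other classes too. Itgb2l, an integrin beta subunit of mature neutrophils, was at 0.42 (0.29 to 0.60), and at 0.50 and 0.55 in maturing and immature cells. Snrpd2, a spliceosome protein, was at 0.37, Pafah1b1, a regulator of dynein, at 0.44 and the serpin Serpinb10 at 0.44.

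The markers other than Retnlg stayed short of 2-fold between genotypes. Mmp8 was at 0.77 (0.71 to 0.84) in Col1a1fspKO relative to WT, and at 0.72, 0.78 and 0.81 in the 3 Retnlg ranges. Mmp9 was at 1.02 (0.90 to 1.16), Cxcr2 at 1.18 (0.88 to 1.60) and Il1f9 at 1.56 (1.11 to 2.21). Within the 3 Retnlg ranges Il1f9 was at 1.86, 1.24 and 1.32, each with an interval that included 1. None of 7 secondary granule genes passed 2-fold, and their median log2 ratio was -0.06. Their sum differed by range, at 1.06 (1.03 to 1.08), 1.12 (1.09 to 1.15) and 0.78 (0.74 to 0.82) over the 3 Retnlg ranges, from the lowest. In the top range Camp was at 0.69, Ngp at 0.65, Ltf at 0.70 and Lcn2 at 0.98. The median log2 ratio of the 6 NADPH oxidase genes was -0.18. None of 8 chemoattractant receptor genes and none of 9 growth factor and immune receptor genes passed 2-fold. Csf3r was at 0.96 (0.68 to 1.38) and Cxcr4 at 0.75 (0.50 to 1.12), both with intervals that included 1. Fcgr3 was at 1.4997 (1.21 to 1.88) and Lilrb4a, an inhibitory receptor, at 1.47 (1.04 to 2.11).

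Of the transcription factors, none of 8 tested passed 2-fold. Cebpe was at 0.63 (0.49 to 0.82), or 220 CPM in members of Col1a1fspKO and 348 CPM in those of WT, and Klf2 was at 1.82 (1.30 to 2.59), or 255.6 and 140.4 CPM. Spi1 was at 1.05 (0.89 to 1.24) and Cebpb at 1.12 (0.86 to 1.47).

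A few large ratios came from single cells. The MHC class II genes Cd74, H2-Aa, H2-Ab1 and H2-Eb1 were past 2-fold upward, with over 50% of their UMIs in 1 cell, and without mixed cells each had 1 or 2 UMIs in Col1a1fspKO and 1 to 3 in WT. The basophil protease genes Prss34 and Mcpt8 were past 2-fold downward, and without mixed cells had 5 against 4 and 3 against 1 UMIs. Lgals1, a galectin, was likewise left with 7 against 6 UMIs.

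**Figure D5:**
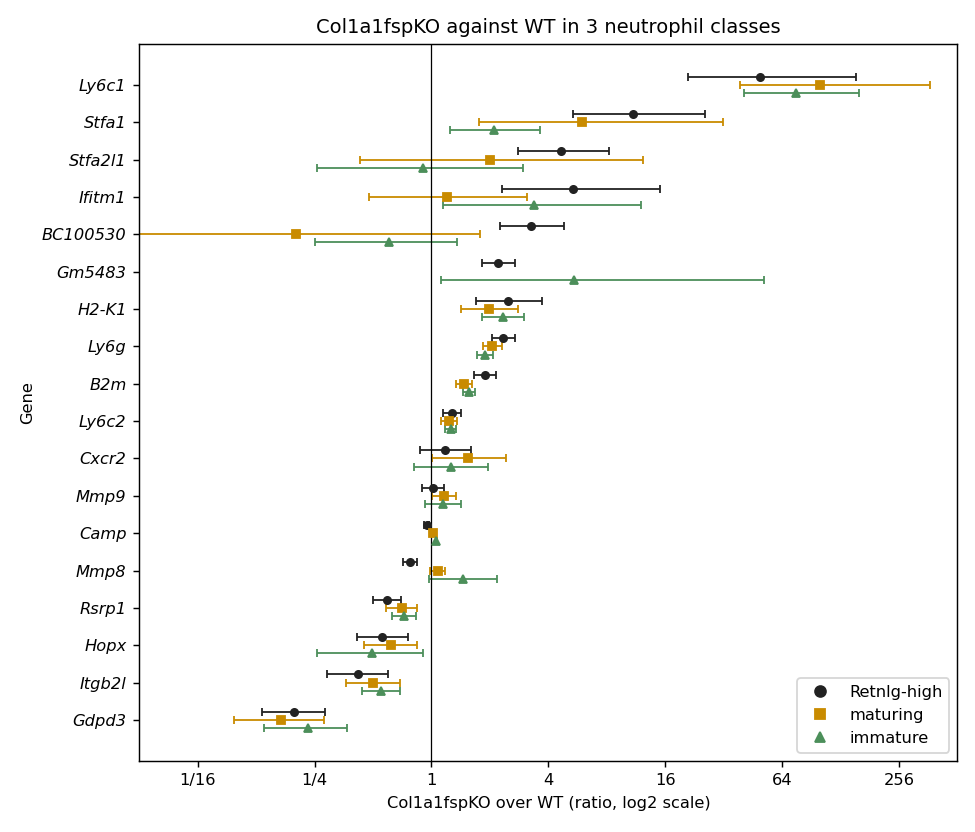
Ratio of CPM in Col1a1fspKO over WT (x axis, log scale) for 18 genes (y axis) in Retnlg-high, maturing and immature neutrophils, with 95% binomial intervals. Ly6c1 lies far to the right in every class, Ly6g near 2 in every class and Gdpd3 at 0.17 to 0.23, while Gm5483 in maturing cells, with 0 UMIs in Col1a1fspKO, is not drawn.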

How the data were processed

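Live-sorted marrow cells were profiled with droplet 3-prime-end single-cell RNA sequencing, 1 library per genotype. The authors aligned reads to mm10 with Cell Ranger and deposited raw UMI counts for every gene in every cell, with Seurat 3.5.3 named in the submitters' processing notes. The study gives about 1000 cells per sample, the tables hold 1309 and 1169 barcodes, and its filter of 200 to 7000 genes and under 10% mitochondrial UMIs removed 0. Counts were added up within a class and given as CPM with exact Poisson intervals, shares with exact binomial intervals, ratios with exact binomial intervals and differences of shares with Newcombe intervals, which cover counting error only. Genes needed 50 UMIs over the groups compared. A list's genes and the 10 highest and lowest ratios per comparison were eligible to be named, and others were named after their values were seen, including those along the Retnlg range and the ribosomal, mitochondrial and MHC lists. Members and lists were chosen with earlier results of these data known. Doublets were kept, and Scrublet called 4 cells per library and 0 members. Python 3.11.15, numpy 2.4.6, pandas 2.3.3, scipy 1.17.1, statsmodels 0.14.6, scanpy 1.11.5 and matplotlib 3.10.9 were used, and ratios were tested on simulated data. Alternatives were other Retnlg thresholds, UMI minimums, thinning, mean single-cell CPM, and, chosen after seeing the data, leaving out mixed cells and, for the granule ratio, a shared UMI minimum.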

Additional observations from a re-analysis of the deposited data

How the results depend on the processing

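No paired analysis was possible because each genotype was 1 library. The difference in the share of Retnlg-high cells was 5.98 points as reported, 2.61 points at a shared UMI minimum and 14.4 points as a share of neutrophils, and kept its direction between 4.83 and 7.28 points under the other settings. Of genes higher in Retnlg-high than in maturing cells (21), a minimum of 20 UMIs gave 54 and leaving out the 20 most abundant genes gave 42. Of genes lower (89), a Retnlg threshold of 200 gave 139, a minimum of 20 UMIs 184, no abundant genes 50 and no mixed cells 13. Between genotypes, a minimum of 20 UMIs gave 125 higher genes (18 as reported) and 82 lower (8), and a threshold of 200 and leaving out mixed cells gave 5 lower each. The secondary granule ratio of top over bottom Retnlg range was 0.303 in Col1a1fspKO, and 0.289 with mean single-cell CPM, 0.273 without mixed cells and 0.314 at a shared minimum. In WT it was 0.413, and 0.367 with mean single-cell CPM and 0.380 without mixed cells. No direction reversed for the share, the granule ratio or the checked genes past 2-fold with over 3 UMIs in a group. Without mixed cells, with 3 or fewer UMIs left in each library, Cd74 went from 44.8 to 0.36 and Mcpt8 from 0.020 to 1.62. H2-Ab1 and H2-Eb1 also changed direction between genotypes on such counts. Cebpb, short of 2-fold with all cells, changed from lower to higher than in maturing cells in WT. With 1 library per genotype, the spread between mice is not covered, and a gene at 20 to 50 UMIs can pass 2-fold on counting error alone.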

Other observations

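Further gene groups were measured in the Retnlg-high cells. The survival genes, which include Mcl1 and the Bcl2a1 genes, summed to 640 CPM in Col1a1fspKO and 592 CPM in WT members, against 479 and 496 CPM in maturing cells, and were 1.78 times higher in the top than in the bottom Retnlg range in both libraries. The cytokine and decoy receptor genes, which include Il1f9, Ccl6 and Il1r2, were 3.12 and 2.95 times higher in the top range. The adhesion genes were 1.42 and 1.39 times higher there. The primary granule genes, made by the earliest precursors, summed to 217 and 260.0 CPM in members, 593 and 254 CPM in maturing cells and 706 and 585 CPM in immature cells. The interferon-stimulated genes summed to 3215 CPM in Col1a1fspKO and 2265 CPM in WT members, and were 1.38 and 1.57 times higher in the top range. The genes induced by tissue dissociation summed to 581 and 440 CPM in members, 407 and 397 CPM in maturing cells and 269 and 215 CPM in immature cells, and their part in the gradient along Retnlg was not tested.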
